A study of Rattus norvegicus with 9 samples.

Results

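A set of 9 cell-surface adhesion genes was followed in messenger RNA of wild-type primary chondrocytes from rat, the cells that make cartilage matrix. They were chosen by name, on the large fall of Cadm4 between IL-1β-treated and control cultures, with 8 other adhesion genes set beside it: Vcam1, Icam1, Thy1, Cadm1, Ncam1, Cdh2, Cdh11 and Cdh13. The 9 genes stood among 17588 in the deposited table. The study used a transwell, a dish with a porous insert, and kept the chondrocytes in its lower well. In the co-culture group, cells treated with IL-1β (interleukin-1β, a cytokine of inflamed joints) shared the medium with skin (dermal) fibroblasts in the insert. The IL-1β group received IL-1β with no fibroblasts, and the control group received neither. Each group had 3 libraries. How much IL-1β was given, for how long, and how long co-culture lasted were not stated in the labels, and there was no group with fibroblasts but without IL-1β. The labels do not say whether the 3 libraries of a group came from separate cultures or animals. The p-values therefore measure only the spread between libraries, which may be technical.

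Adhesion molecules of the immunoglobulin superfamily reach out from the membrane with immunoglobulin-like domains. Vcam1 and Icam1 hold leukocytes through integrins and are classical targets of NF-κB signalling, which IL-1β turns on. The Cadm proteins (nectin-like molecules) bind each other across cell contacts. Cadherins join cells in a calcium-dependent way and most of them couple to the actin cytoskeleton through catenins. N-cadherin (Cdh2) and Ncam1 are known for the packing of mesenchymal cells that comes before cartilage formation in the embryo.

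Promoter sequences for 3 of the 9 genes were in the RefSeq table of the rat build GRCr8 and are shown because these genes differ in direction with IL-1β. The windows ran from 250 bases before to 50 bases after the start on which each promoter was set. The stretches for Vcam1 (chr2:206742784-206742903, minus strand) and Cadm4 (chr1:89202969-89203088, plus strand) are the 120 bases just before the start. That for Icam1 (chr8:27829595-27829687, plus strand) is the upstream end of its window. It stops there because the annotated span of Icam1 begins inside the window, upstream of that start. Capitals in Vcam1 mark GGNNNTTCC, a short form of the NF-κB motif, and TATAAA, the TATA box, which matched on both strands with overlap. Capitals in Icam1 mark GGNNNTTCC. Capitals in Cadm4 mark GGGCGG, the GC box, on either strand.
Vcam1: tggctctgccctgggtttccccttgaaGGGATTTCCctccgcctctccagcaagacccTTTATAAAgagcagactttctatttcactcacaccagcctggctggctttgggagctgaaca
Icam1: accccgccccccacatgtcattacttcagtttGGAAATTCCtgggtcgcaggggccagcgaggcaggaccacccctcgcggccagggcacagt
Cadm4: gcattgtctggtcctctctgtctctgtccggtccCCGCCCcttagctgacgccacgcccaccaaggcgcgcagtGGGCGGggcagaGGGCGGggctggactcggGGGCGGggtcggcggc

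All motifs were searched on both strands, and their letters were set with these promoters in view. In the whole windows, GGNNNTTCC matched 2 times in Vcam1, 2 times in Icam1 and 0 times in Cadm4. The match shown for Vcam1 began 93 bases before the start of its window's setting, and the match shown for Icam1 218 bases before its own. The annotated span of Icam1 begins nearer to that match, just past the printed stretch. GGGCGG matched 4 times in Cadm4, 2 times in Icam1 and 0 times in Vcam1. TATAAA matched 2 times in Vcam1 (1 site read on both strands), 1 time in Icam1 and 0 times in Cadm4. Some of the Icam1 matches lay inside its annotated span. They were the GGNNNTTCC match from 149, the GGGCGG match from 82 and the TATAAA match from 53 bases before the start. Matches of different motifs did not overlap. Of 33469 rat promoters of this length, 18.3% held GGNNNTTCC, 14.2% TATAAA and 33.1% GGGCGG. The Cadm4 window was 76.0% G and C, against 65.3% in Icam1, 50.3% in Vcam1 and a median of 51.7% over all promoters. These are matches of letters only.

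With IL-1β, 4 of the 9 genes were higher than in control chondrocytes (Vcam1, Icam1, Cadm1 and Cdh2), 4 were lower (Cadm4, Cdh13, Cdh11 and Ncam1), and Thy1 did not pass the threshold. A gene was called at a limma adjusted p under 0.05, after Benjamini-Hochberg adjustment over the 11732 genes with at least 1 FPKM (fragments scaled by transcript length and by library) in at least 3 libraries, a filter that all 9 passed. Because the genes were chosen on this comparison, their values in it are a description. Of all tested genes 46.7% were called here, 26.5% higher and 20.2% lower, and in 56.4% the libraries of the groups did not overlap, as in all 9 of these. The median difference in log2(FPKM + 1) was -0.05 over the 9 genes and 0.02 over all tested genes.

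Between co-culture and IL-1β alone, 2 of the 9 genes rose (Ncam1 and Cdh11), 5 fell (Icam1, Cdh2, Cadm1, Vcam1 and Thy1) and 2 were not called (Cadm4 and Cdh13). All tested genes gave 22.0% called, 11.9% higher and 10.1% lower. The libraries did not overlap in 7 of the 9 genes, against 37.6% of all tested genes. The median difference was -0.11 over the 9 genes and 0.02 over all. Between co-culture and control, 4 rose (Vcam1, Icam1, Cadm1 and Cdh2) and 5 fell (Cadm4, Cdh13, Cdh11, Thy1 and Ncam1), where 33.9% of all tested genes were called, 21.8% higher and 12.2% lower. None of the 9 overlapped between these groups, against 46.5% of all tested genes without overlap, and the median difference was -0.14 over the 9 genes and 0.04 over all. These comparisons share the IL-1β or the control libraries with the comparison that chose the genes, so they are not independent of it. Every one of the 9 genes kept its direction in each comparison under every scaling, filter, pseudocount and left-out library that gave it a value.

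**Figure D1:**
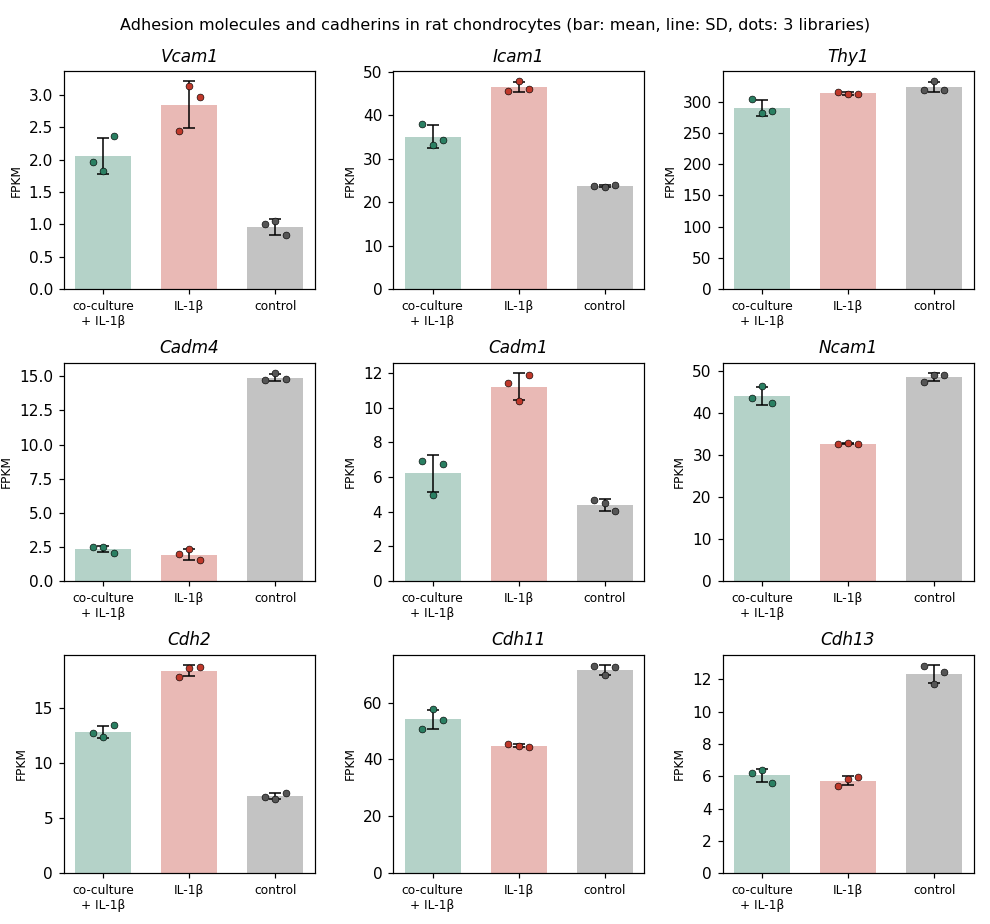
FPKM (vertical axes, each starting at 0) of the 9 adhesion genes in the co-culture + IL-1β, IL-1β and control groups; bars are means, lines SD and dots the 3 libraries of a group. Cadm4 lay between 1.54 and 2.49 FPKM in all libraries with IL-1β and between 14.72 and 15.23 FPKM in controls.

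Vcam1, the vascular cell adhesion molecule that binds α4 integrins, had 1.96, 1.83 and 2.36 FPKM in co-culture, 2.44, 3.13 and 2.97 FPKM with IL-1β alone, and 1.00, 1.06 and 0.83 FPKM in controls. IL-1β cultures were highest and controls lowest, without overlap between any groups, although the highest co-culture library came close to the lowest IL-1β library. The mean with IL-1β was 2.96-fold that of controls, a difference of 0.97 ± 0.10 in log2(FPKM + 1) (SE). In co-culture Vcam1 fell by 0.33 ± 0.10 relative to IL-1β alone (limma adjusted p = 0.0356), and its mean with IL-1β alone was 1.39-fold the co-culture mean. This call was lost without IL-1β replicate 2 or 3 or co-culture replicate 1 or 2 (adjusted p 0.0870 to 0.118), and at a pseudocount of 0.1, without the filter, after quantile normalization or in a fit of the 6 libraries compared (adjusted p 0.0519 to 0.0564). Against controls, co-culture cells stood 0.63 ± 0.10 higher (limma adjusted p = 0.000800), or 2.13-fold in mean FPKM.

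Icam1, the intercellular adhesion molecule that binds β2 integrins of leukocytes, had 37.97, 33.05 and 34.19 FPKM in co-culture, 45.57, 47.78 and 46.07 FPKM with IL-1β alone, and 23.70, 23.58 and 23.90 FPKM in controls. All co-culture libraries lay between the other groups. The mean with IL-1β was 1.96-fold that of controls, a difference of 0.94 ± 0.05 in log2(FPKM + 1). In co-culture Icam1 fell by 0.40 ± 0.05 relative to IL-1β alone (limma adjusted p = 0.000300), and it was 0.54 ± 0.05 above controls (limma adjusted p = 1.66e-05).

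Thy1, the GPI-anchored CD90 of fibroblasts and mesenchymal cells, had 304.54, 281.01 and 284.59 FPKM in co-culture, 315.93, 311.74 and 311.31 FPKM with IL-1β alone, and 318.85, 332.58 and 318.78 FPKM in controls. The groups did not overlap, but all 9 libraries lay close together, and co-culture was lowest. The difference between IL-1β and control was -0.05 ± 0.03 in log2(FPKM + 1). Thy1 fell by 0.11 ± 0.03 in co-culture relative to IL-1β alone (limma adjusted p = 0.0414) and by 0.16 ± 0.03 relative to controls (limma adjusted p = 0.00528). The first of these calls was lost without any one of the IL-1β libraries, co-culture replicate 2 or 3, or control replicate 1 or 3 (adjusted p 0.0564 to 0.140), and without the filter, without the variance trend or in a fit of the 6 libraries compared (adjusted p 0.0618 to 0.0889).

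Cadm4, a nectin-like molecule known from the contact of Schwann cells with axons, had 2.49, 2.47 and 2.09 FPKM in co-culture, 1.97, 2.34 and 1.54 FPKM with IL-1β alone, and 14.72, 15.23 and 14.76 FPKM in controls. Every library that had received IL-1β, with or without fibroblasts, lay far below every control library, while the co-culture and IL-1β libraries overlapped. The control mean was 7.64-fold the mean with IL-1β, a difference of -2.44 ± 0.10 in log2(FPKM + 1), IL-1β minus control. Ordered from the largest fall, Cadm4 stood at rank 4 of the 11732 tested genes. Low values are compressed on this scale, and at a pseudocount of 0.1 the same difference was -2.89. Co-culture differed from IL-1β alone by 0.19 ± 0.10, with a 95% interval of -0.02 to 0.40 (limma adjusted p = 0.190). Against controls, Cadm4 in co-culture fell by 2.25 ± 0.10 (limma adjusted p = 7.56e-08).

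Cadm1, a relative of Cadm4 that also acts at synapses, had 6.90, 4.98 and 6.77 FPKM in co-culture, 11.42, 10.35 and 11.86 FPKM with IL-1β alone, and 4.69, 4.49 and 4.03 FPKM in controls. Its direction with IL-1β was opposite to that of Cadm4, and no groups overlapped, although 1 co-culture library lay just above the highest control. The mean with IL-1β was 2.55-fold that of controls, a difference of 1.18 ± 0.11 in log2(FPKM + 1). Cadm1 fell by 0.77 ± 0.11 in co-culture relative to IL-1β alone (limma adjusted p = 0.000684), and the mean with IL-1β alone was 1.80-fold the co-culture mean. This was the largest difference among the 9 genes in that comparison. Against controls it rose by 0.41 ± 0.11 (limma adjusted p = 0.0139), a call lost without control replicate 3, co-culture replicate 1 or co-culture replicate 3 (adjusted p 0.0503 to 0.0533). The other family members, Cadm2 and Cadm3, reached at most 0.08 and 0.87 FPKM in any library.

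Ncam1, the neural cell adhesion molecule, had 43.50, 46.34 and 42.30 FPKM in co-culture, 32.69, 32.88 and 32.51 FPKM with IL-1β alone, and 47.42, 49.04 and 49.14 FPKM in controls. The IL-1β libraries lay within a narrow band below both other groups, and the co-culture libraries lay just under the controls. The control mean was 1.48-fold the mean with IL-1β, a difference of -0.56 ± 0.04 in log2(FPKM + 1), IL-1β minus control. In co-culture Ncam1 rose by 0.42 ± 0.04 relative to IL-1β alone (limma adjusted p = 3.92e-05), the largest rise among the 9 genes. Relative to controls it fell by 0.14 ± 0.04 (limma adjusted p = 0.0163). That last call was lost without control replicate 2, control replicate 3 or co-culture replicate 3 (adjusted p 0.0518 to 0.0581).

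**Figure D2:**
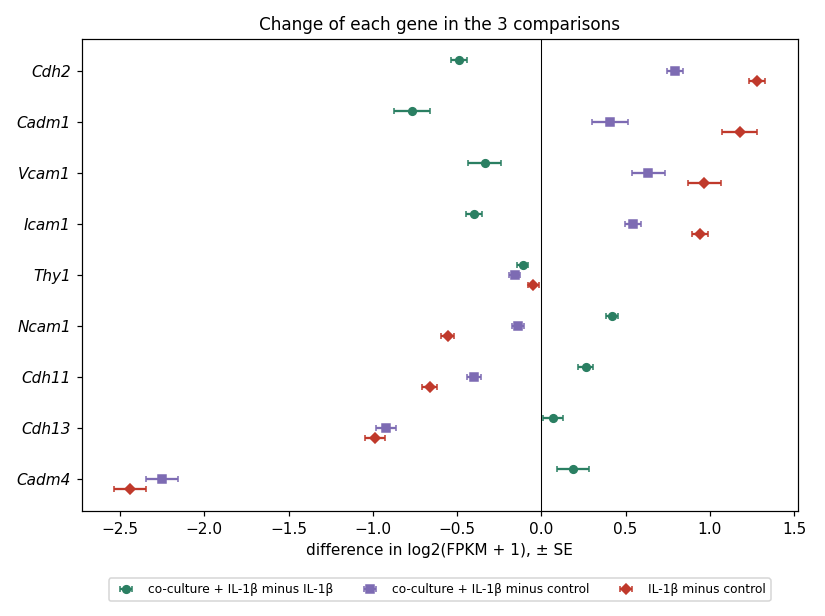
Difference in log2(FPKM + 1) (horizontal axis, ± SE) of each gene for co-culture minus IL-1β, co-culture minus control and IL-1β minus control, from a limma fit of all 9 libraries. Cdh2, Cadm1, Vcam1 and Icam1 lie right of 0 against controls and left of 0 in co-culture minus IL-1β, whereas Cadm4 stands apart at -2.44 and -2.25.

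Cdh2, or N-cadherin, had 12.71, 12.41 and 13.48 FPKM in co-culture, 17.84, 18.69 and 18.76 FPKM with IL-1β alone, and 6.95, 6.72 and 7.32 FPKM in controls. The groups were wide apart, with co-culture in the middle. The mean with IL-1β was 2.63-fold that of controls, a difference of 1.28 ± 0.05 in log2(FPKM + 1), the largest positive one among the 9 genes. Cdh2 fell by 0.49 ± 0.05 in co-culture relative to IL-1β alone (limma adjusted p = 7.74e-05) and was 0.79 ± 0.05 higher than in controls (limma adjusted p = 9.48e-07).

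Cdh11, the cadherin of mesenchymal cells and of fibroblasts in the joint lining, had 50.76, 57.71 and 53.89 FPKM in co-culture, 45.38, 44.66 and 44.50 FPKM with IL-1β alone, and 72.76, 69.65 and 72.41 FPKM in controls. It moved opposite to Cdh2, with IL-1β lowest and controls highest in every library. The control mean was 1.60-fold the mean with IL-1β, a difference of -0.66 ± 0.04 in log2(FPKM + 1), IL-1β minus control. Cdh11 rose by 0.26 ± 0.04 in co-culture relative to IL-1β alone (limma adjusted p = 0.00209) and fell by 0.40 ± 0.04 relative to controls (limma adjusted p = 7.83e-05).

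Cdh13, or T-cadherin, lacks the tail that binds catenins and is held by a GPI anchor. It had 6.18, 6.39 and 5.61 FPKM in co-culture, 5.42, 5.84 and 5.94 FPKM with IL-1β alone, and 12.82, 11.73 and 12.48 FPKM in controls. As with Cadm4, the co-culture and IL-1β libraries overlapped, and both lay below all controls. The control mean was 2.15-fold the mean with IL-1β, a difference of -0.99 ± 0.06 in log2(FPKM + 1), IL-1β minus control. Co-culture differed from IL-1β alone by 0.07 ± 0.06, with a 95% interval of -0.07 to 0.20 (limma adjusted p = 0.464). Against controls, Cdh13 in co-culture fell by 0.92 ± 0.06 (limma adjusted p = 1.69e-06).

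The order of levels, in FPKM, which is per transcript length, changed with treatment. Thy1 was the most abundant of the 9 transcripts in every group, at a mean of 290.05 ± 12.7 FPKM in co-culture, 313 ± 2.55 FPKM with IL-1β and 323 ± 7.95 FPKM in controls (SD, n = 3 each). In controls it was followed by Cdh11, Ncam1, Icam1, Cadm4, Cdh13, Cdh2, Cadm1 and Vcam1. With IL-1β alone the order after Thy1 was Icam1, Cdh11, Ncam1, Cdh2, Cadm1, Cdh13, Vcam1 and Cadm4, so that Cadm4 took the last place. In these groups no neighbours in the order overlapped. In co-culture the order was Thy1, Cdh11, Ncam1, Icam1, Cdh2, Cadm1, Cdh13, Cadm4 and Vcam1. There Cadm1 and Cdh13 overlapped, as did Cadm4 and Vcam1.

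Genes with the most similar pattern were sought by the root mean square difference over the 9 libraries of log2(FPKM + 1), centred on each gene's mean, among 8497 genes averaging at least 5 FPKM in 1 or more groups. Nearest to Cadm4 were Eln (elastin) at 0.133, Col2a1 at 0.188 and Col11a2 at 0.206 (cartilage collagens), Lect1 (chondromodulin) at 0.240 and Fam180a at 0.252. Eln averaged 7.18 FPKM in co-culture, 5.59 FPKM with IL-1β and 33.1 FPKM in controls. Nearest to Cdh2 was Clmp, another immunoglobulin-superfamily adhesion molecule, at 0.0473. The nearest gene to Icam1 was Vegfa at 0.0474, to Vcam1 Ccdc181 at 0.0699, to Ncam1 Ptgs1 at 0.0402 and to Cadm1 Pla2g7 at 0.115. Cdh11 was nearest to Lmo7 at 0.0365, Cdh13 to Ccdc80 at 0.0566 and Thy1 to Ext2 at 0.0220. The search had no test.

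Among other immunoglobulin-superfamily adhesion molecules, 36 were in the table and 15 passed the filter; the other 21 stayed at or under 0.87 FPKM. With IL-1β against control, 8 of the 15 rose and 5 fell, and in co-culture against IL-1β alone 1 rose (Nectin3) and 6 fell. Of these 6 falls, those of Cd47 and Igsf8 were each lost without IL-1β replicate 3 or co-culture replicate 2 (limma adjusted p up to 0.0651). Under each of the other 3 scalings 7 rose with IL-1β, since the Jam3 call was lost there (limma adjusted p up to 0.401), and it was also lost without any one control library and without IL-1β replicate 1 or 3. At a common FPKM sum and after quantile normalization 6 fell, since Mpzl1 was then called lower. Beside these counts and those of the lists that follow stand the shares over all tested genes, 46.7% called with IL-1β (26.5% higher, 20.2% lower) and 22.0% called in co-culture against IL-1β (11.9% higher, 10.1% lower). The medians were 0.11 and -0.04 in log2(FPKM + 1), beside 0.02 over all tested genes in both comparisons. Clmp averaged 60.5 ± 1.52 FPKM in co-culture, 81.2 ± 1.73 FPKM with IL-1β and 35.1 ± 0.667 FPKM in controls. It rose by 1.19 with IL-1β (limma adjusted p = 8.58e-10) and fell by 0.42 in co-culture relative to IL-1β (limma adjusted p = 1.19e-05). Nectin2, a junction molecule, averaged 20.6 ± 0.928 FPKM in co-culture, 31.5 ± 0.846 FPKM with IL-1β and 13.6 ± 0.775 FPKM in controls, and it was called in the same directions (limma adjusted p = 3.22e-08 and 2.70e-05). Cxadr, the coxsackievirus and adenovirus receptor of tight junctions, averaged 33.4 ± 1.26 FPKM in co-culture, 34.5 ± 1.51 FPKM with IL-1β and 15.8 ± 0.540 FPKM in controls. It rose with IL-1β (limma adjusted p = 2.57e-08) and was not called between co-culture and IL-1β (limma adjusted p = 0.547). Nectin3 went the other way, at 27.4 ± 0.394 FPKM in co-culture, 22.7 ± 0.529 FPKM with IL-1β and 30.95 ± 1.54 FPKM in controls (limma adjusted p = 0.00139 against IL-1β alone).

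Of 26 other cadherins only 4 passed the filter, the rest staying at or under 1.15 FPKM, and Cdh1, the epithelial cadherin, reached at most 0.03 FPKM. Cdh3, or P-cadherin, averaged 14.8 ± 0.457 FPKM in co-culture, 10.06 ± 0.435 FPKM with IL-1β and 16.4 ± 0.372 FPKM in controls. It fell by 0.66 with IL-1β (limma adjusted p = 1.03e-06) and rose by 0.51 in co-culture relative to IL-1β alone (limma adjusted p = 3.16e-05), the directions of Cdh11 and Ncam1. With IL-1β against control, 1 of the 4 cadherins rose (Cdh15, also a muscle marker) and 2 fell (Cdh3 and Clstn1). The Cdh15 call was lost when libraries were set to a common FPKM sum or quantile normalized, without any one control library, and without IL-1β replicate 2 or 3 (limma adjusted p up to 0.108). Of 7 protocadherins and Fat-type cadherins above the filter, 2 rose and 5 fell with IL-1β, with a median of -0.48, and 3 rose (Cdhr1, Pcdh18 and Pcdh19) and 1 fell (Dchs1) in co-culture relative to IL-1β alone. Cdhr1, a cadherin known from photoreceptors, averaged 3.99 ± 0.175 FPKM in co-culture, 2.02 ± 0.183 FPKM with IL-1β and 8.71 ± 0.0961 FPKM in controls (limma adjusted p = 2.70e-05 in co-culture against IL-1β).

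**Figure D3:**
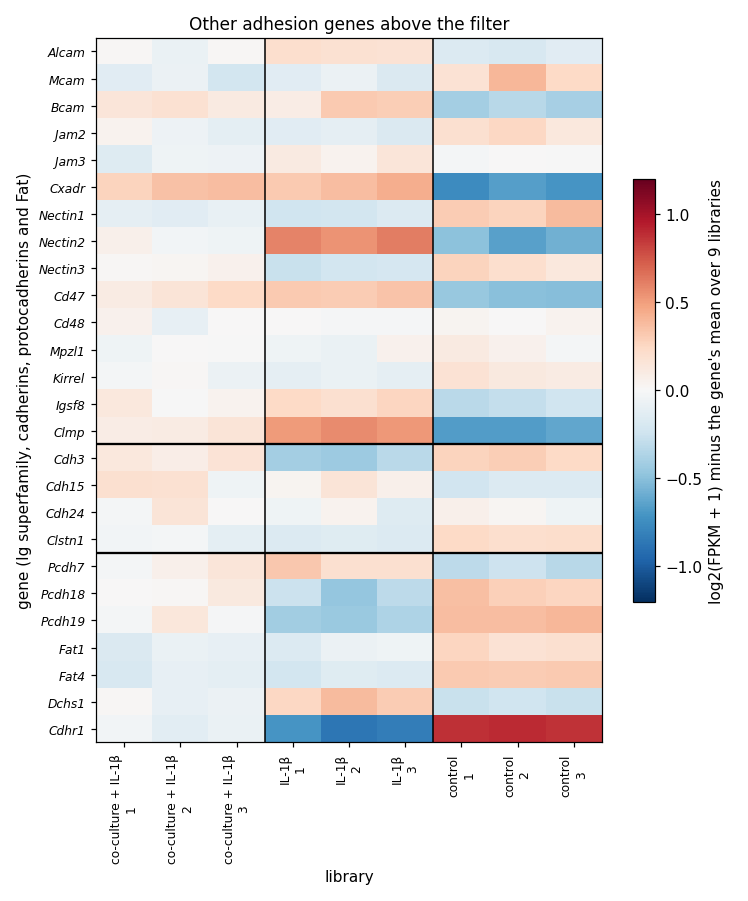
Heat map of other immunoglobulin-superfamily genes, cadherins, and protocadherins or Fat cadherins (rows) in each library (columns); colour is log2(FPKM + 1) minus the gene's mean over the 9 libraries. Clmp and Nectin2 are highest in the IL-1β libraries and lowest in controls, and Cdhr1 shows the reverse.

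Catenins link cadherins to actin, and other junction plaque proteins were listed with them. Of 20 above the filter, 3 rose and 6 fell with IL-1β, a share near the 46.7% of all tested genes, and 5 rose, among them Vcl and Pkp1, and 2 fell (Jup and Epb41l3) in co-culture relative to IL-1β. Against control, 7 fell with IL-1β at a common FPKM sum or after median-of-ratios scaling, and 8 after quantile normalization. The Ctnna1 fall with IL-1β was lost without any one control or IL-1β library and without the variance trend (limma adjusted p up to 0.134). After median-of-ratios scaling 4 fell in co-culture, and at a common FPKM sum or after quantile normalization 1 fell. The Jup call was lost under most settings, including those 2 scalings and without any one control or IL-1β library or co-culture replicate 2 or 3 (limma adjusted p up to 0.141). The Epb41l3 call was lost without any one IL-1β library and without co-culture replicate 1 or 3 (limma adjusted p up to 0.0743). β-Catenin (Ctnnb1) averaged 174 ± 2.30 FPKM in co-culture, 168 ± 1.82 FPKM with IL-1β and 174 ± 1.36 FPKM in controls, and was not called between IL-1β and control (limma adjusted p = 0.136), although it was called after each of the 3 other scalings. Vinculin (Vcl) averaged 65.3 ± 4.51 FPKM in co-culture, 49.1 ± 0.422 FPKM with IL-1β and 96.03 ± 1.10 FPKM in controls. It fell by 0.95 with IL-1β (limma adjusted p = 6.37e-08) and rose by 0.40 in co-culture relative to IL-1β (limma adjusted p = 0.000163).

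Leukocyte integrins that bind Icam1 were low: Itgal reached at most 0.34 FPKM, Itgam 0.67 FPKM and Itgb2 1.03 FPKM. Itgax, the CD11c chain, passed the filter at 1.68, 1.77 and 1.80 FPKM in co-culture, 1.40, 1.28 and 1.64 FPKM with IL-1β alone, and 1.47, 1.57 and 1.64 FPKM in controls, and was called in no comparison. Of the 5 receptor genes above the filter, 4 fell and 0 rose with IL-1β, and 3 rose (Itgb1, Itga4 and Spn) and 0 fell in co-culture relative to IL-1β alone. The Itga4 call was lost in a fit of the 6 libraries compared and without IL-1β replicate 1 or 2 or co-culture replicate 2 or 3 (limma adjusted p up to 0.0778). Itgb1, the shared β1 chain, averaged 539.7 ± 9.78 FPKM in co-culture, 476.6 ± 7.94 FPKM with IL-1β and 607.7 ± 3.12 FPKM in controls (limma adjusted p = 0.000616 in co-culture against IL-1β). Selp, or P-selectin, an adhesion receptor of platelets and endothelium, averaged 3.64 ± 0.243 FPKM in co-culture, 5.83 ± 0.388 FPKM with IL-1β and 0.770 ± 0.303 FPKM in controls. It rose by 1.96 with IL-1β (limma adjusted p = 3.13e-07) and fell by 0.56 in co-culture relative to IL-1β (limma adjusted p = 0.00607).

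Proteases shed several adhesion molecules from the surface, Adam17 acting on Vcam1 and Adam10 on N-cadherin. Of 11 sheddases, partners and inhibitors above the filter, 7 rose and 2 fell with IL-1β, and 2 rose (Adam12 and Adam19) and 6 fell in co-culture relative to IL-1β. Of these falls, that of Timp1 was lost without the filter, without the variance trend and in a fit of the 6 libraries compared. It was also lost without any one control library, IL-1β replicate 1 or 3 or co-culture replicate 2 (limma adjusted p up to 0.149). The Adam15 fall was lost without IL-1β replicate 1 or 2 (limma adjusted p up to 0.0609). Adam17 averaged 49.7 ± 3.40 FPKM in co-culture, 62.4 ± 0.883 FPKM with IL-1β and 34.2 ± 1.43 FPKM in controls, rising by 0.85 with IL-1β (limma adjusted p = 3.72e-07) and falling in co-culture relative to IL-1β (limma adjusted p = 0.00128). Its inhibitor Timp3 moved in the same directions, at 13.1 ± 1.57 FPKM in co-culture, 44.2 ± 0.920 FPKM with IL-1β and 9.84 ± 0.505 FPKM in controls. In co-culture relative to IL-1β, Timp3 fell by 1.68 (limma adjusted p = 4.62e-07). Among 10 linkers to actin and partners of Thy1 or T-cadherin above the filter, 3 rose and 3 fell with IL-1β, beside 46.7% of all tested genes called. At a common FPKM sum 5 fell, and after quantile or median-of-ratios scaling 4 fell. The Lgals3 fall with IL-1β was lost without the variance trend, any one IL-1β library, or control replicate 1 or 2 (limma adjusted p up to 0.0992). In co-culture relative to IL-1β, 2 rose (Ezr and Rdx) and 2 fell (Itgb3 and Sdc4). The Rdx call was lost at a common FPKM sum, after median-of-ratios scaling, and without any one IL-1β library or co-culture replicate 2 or 3 (limma adjusted p up to 0.115). The Sdc4 call was lost without the filter, without any one IL-1β library, control replicate 2 or 3, or co-culture replicate 1 or 3 (limma adjusted p up to 0.135). For both genes it was also lost in a fit of the 6 libraries compared and without the variance trend. Ezrin (Ezr), which ties Icam1 to actin, averaged 47.99 ± 1.27 FPKM in co-culture, 33.0 ± 0.450 FPKM with IL-1β and 56.4 ± 0.745 FPKM in controls (limma adjusted p = 2.38e-06 in co-culture against IL-1β), opposite in direction to Icam1.

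Markers of cells that also carry these adhesion genes were summed in each library. The cells bore chondrocyte markers, 10 of 10 above the filter, summing to 631 to 688 FPKM in co-culture, 450 to 469 FPKM with IL-1β and 1936 to 2019 FPKM in controls; all 10 fell with IL-1β and 8 rose in co-culture relative to IL-1β. Skeletal muscle markers, of cells that also make Ncam1, Cdh2 and Vcam1, summed to 402 to 451 FPKM in co-culture, 413 to 435 FPKM with IL-1β and 188 to 194 FPKM in controls. All 11 of those above the filter, of 15, rose with IL-1β. At a common FPKM sum or after quantile normalization 10 rose, since the Cdh15 call was lost there. That call was also lost without any one control library and without IL-1β replicate 2 or 3 (limma adjusted p up to 0.108). Myog averaged 36.7 ± 3.67 FPKM in co-culture, 33.4 ± 0.694 FPKM with IL-1β and 12.4 ± 1.64 FPKM in controls. Pax7 reached at most 0.11 FPKM. Between co-culture and IL-1β, 0 of these 11 rose and 1 fell (Acta1), a call lost without the filter and without IL-1β replicate 1 or 2 or co-culture replicate 2 or 3 (limma adjusted p up to 0.0907). Schwann and neural markers (4 of 10 above the filter) summed to 122 to 127 FPKM in co-culture, 118 to 121 FPKM with IL-1β and 142 to 151 FPKM in controls, with Sox10 at most 0.24 FPKM. All 4 fell with IL-1β, although the S100b call was lost without the filter, control replicate 2 or 3, or IL-1β replicate 2 or 3 (limma adjusted p up to 0.103). In co-culture relative to IL-1β, 1 of the 4 rose (Pmp22) and 0 fell. Pmp22, most of the sum, averaged 96.1 FPKM in co-culture and 88.2 FPKM with IL-1β, and S100b 23.7 and 27.6 FPKM. At a common FPKM sum and after quantile or median-of-ratios scaling, 0 rose and 1 fell. There the Pmp22 call was lost and S100b was called lower. Dermal fibroblast markers (8 of 12 above the filter) summed to 2435 to 2491 FPKM in co-culture, 2699 to 2752 FPKM with IL-1β and 3834 to 4041 FPKM in controls, with Dpp4 at most 0.11 FPKM, Pi16 1.05 FPKM and Cd34 1.31 FPKM. With IL-1β 4 of these 8 rose and 4 fell, so the sum, which Col1a1 and Col3a1 dominate in controls, does not describe every marker. Lum averaged 359 FPKM in co-culture, 764.5 FPKM with IL-1β and 87.8 FPKM in controls, whereas Col3a1 averaged 598.7 FPKM in co-culture, 431 FPKM with IL-1β and 1312 FPKM in controls. In co-culture relative to IL-1β, 2 of the 8 rose (Col1a1 and Col3a1) and 2 fell (Dcn and Lum). The Col1a1 call was lost without the filter or the variance trend, after quantile or median-of-ratios scaling, and without IL-1β replicate 1 or 2 or co-culture replicate 1 or 2 (limma adjusted p up to 0.0785).

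Endothelial markers (2 of 11 above the filter) summed to 9.69 to 10.8 FPKM in co-culture, 9.79 to 10.7 FPKM with IL-1β and 13.2 to 14.3 FPKM in controls; both (Egfl7 and Erg) fell with IL-1β, and Pecam1, Cdh5 and Vwf reached at most 0.33, 0.23 and 0.02 FPKM. Macrophage and leukocyte markers (6 of 10 above the filter) summed to 24.6 to 25.3 FPKM in co-culture, 26.1 to 28.3 FPKM with IL-1β and 28.2 to 31.5 FPKM in controls, with Ptprc at most 0.10 FPKM. With IL-1β 2 of these 6 rose and 2 fell. The Laptm5 fall was lost without any one control or IL-1β library (limma adjusted p up to 0.0904). The 4 T cell markers in the table stayed at or under 0.43 FPKM. The part of the muscle, Schwann, fibroblast and other marker-bearing cells in the differences of the 9 adhesion genes was not tested, and in bulk RNA fewer cells of a type and less RNA per cell cannot be told apart.

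**Figure D4:**
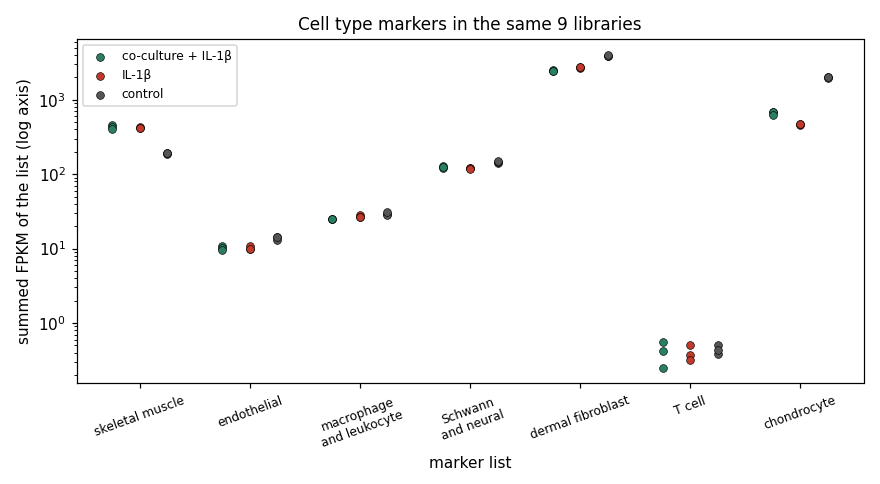
Summed FPKM (vertical log axis) of 7 marker lists in each of the 3 libraries of the co-culture + IL-1β, IL-1β and control groups. Muscle markers lie at 402 to 451 FPKM in libraries with IL-1β and at 188 to 194 FPKM in controls, and chondrocyte markers are highest in controls.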

How the data were processed

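Poly(A) RNA libraries were made from chondrocytes, per the labels' protocols, which do not say whether strand was kept. The authors deposited FPKM values per gene and library, per the file headers. Aligner and counter were not stated. A mouse build, GRCm38, is named in the submitters' processing notes, yet the labels give rat as the organism; 16396 of 17588 gene IDs (93.2%) were found in RefSeq's rat GRCr8 table, and the only coordinates given are RefSeq's own. FPKM summed to 771058 to 832248 per library, and 11337 to 11522 genes reached 1 FPKM. Steps between low values gave ratios of 0.962 to 1.06 to the first control library, from only 2 to 14 genes. Only genes whose nonzero values lay close together entered, so that choice held these ratios near 1. They do not measure how depth differed between libraries. Depth is therefore unknown, and no count test was run. No library pair shared more than 0.912% of values.

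Titles gave the groups. Genes were kept where 3 or more of the 9 libraries had 1 FPKM or more, and tested on log2(FPKM + 1), a scale that understates changes of low genes; folds are ratios of mean FPKM. All 9 libraries entered 1 fit in limma 3.58.1 (R 4.3.3), using a mean-variance trend (prior degrees of freedom 3.64), two-sided, with Benjamini-Hochberg adjustment over all 11732 genes in each of 3 comparisons. The fit was tested on simulated data. The 9 genes, the lists and the tests were chosen with earlier results of these data known. Beside the 9 genes, the text names list genes among the 4 with the smallest p per list and comparison, the nearest genes in pattern, and markers; Ctnnb1, genes named beside a small count and genes under the filter were named after their values were seen. Alternatives were pseudocounts of 0.1 and 0.5, no filter, a mean of at least 5 FPKM, a common FPKM sum, quantile and median-of-ratios scaling, a replicate block, a fit of 6 libraries, no variance trend and each library left out. Figures were drawn with matplotlib 3.10.9.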

Additional observations from a re-analysis of the deposited data

How the results depend on the processing

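The counts of genes called stayed within 1.5 times under every setting run: without single libraries they were 4804 to 5544 for IL-1β against control, 1916 to 2482 for co-culture against IL-1β and 3252 to 3887 for co-culture against control. Of the 9 genes, 5 to 7 were called between co-culture and IL-1β and 7 to 9 between co-culture and control; no direction turned, and Vcam1 had no value with a mean of at least 5 FPKM. Scaling moved the balance of calls over all genes. IL-1β against control had 3109 higher and 2370 lower, but 2249 and 3188 at a common FPKM sum, 2291 and 3332 after quantile normalization and 2749 and 2714 after median-of-ratios scaling. Co-culture against control had 2554 higher and 1427 lower, but 1541 and 2009, 1641 and 2076, and 1844 and 1881 under the same settings. Co-culture against IL-1β had 1393 higher and 1188 lower, and 1124 and 1319 after median-of-ratios scaling. The replicate numbers share only a number: same-numbered libraries correlated at -0.0907 to 0.0855 in their deviations from group means and others at -0.0768 to 0.0887, and the best match carried the same number in 8 of 18 cases. With the replicate block, 5201, 2266 and 3681 genes were called for IL-1β against control, co-culture against IL-1β and co-culture against control, and 5 and 9 of the adhesion genes in the last 2; Vcam1 (adjusted p = 0.0612) and Thy1 (adjusted p = 0.0682) were not called between co-culture and IL-1β in that limma fit. Depth is unknown, so the precision of genes near 1 FPKM, such as Vcam1 in controls, rests on the spread of 3 libraries.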
